A study of Mus musculus with 6 samples.

Results

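Macrophages are the main immune cells of the testis. The subject here was a set of 32 genes of testicular macrophages, taken as a list of symbols and ordered by role: a growth factor with its receptor and a lineage transcription factor, surface and uptake receptors, the C1q chains, leukocyte surface and signalling genes, lysosomal and oxidase enzymes, and chemokines with their receptors. A probe set of the array stood for a gene where its platform annotation gave that symbol alone, and where a gene had several, the one with the highest mean over the 6 arrays was used and the others served as a check. All 32 genes had such a probe set, of 18193 genes with one on the array, and 12 of the 32 had more than 1. The samples were whole testes from mice aged 8 weeks. The mice belonged to 3 inbred strains: AKR/N, MRL/MpJ (labelled MRL/MpJ+/+) and C57BL/6. There were 2 mice per strain in the design and 2 arrays per strain, numbered replicate 1 and replicate 2. No group carried a treatment, and total RNA of the whole organ was hybridised to Affymetrix arrays of 45101 probe sets.

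Most testicular macrophages lie in the interstitium, close to Leydig cells, and others lie on the wall of the seminiferous tubules. The lineage depends on the receptor Csf1r, its ligand Csf1 and the transcription factor PU.1, encoded by Spi1. The cells clear debris through scavenger and lectin receptors and degrade it in lysosomes rich in cathepsins and legumain, and they make the C1q chains of complement. In testis they are also known for close contact with Leydig cells and for a mostly immunosuppressive role.

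Values are intensities that the authors had scaled to 1 common trimmed mean of 125.001 on every array, and an array's median was 28.0 to 30.7. The 40th percentile of an array lay between 17.8 and 20.8. A probe set was tested where at least 2 of the 6 arrays were above that percentile, which kept 29692 probe sets and 14477 genes. Arrays of the same strain correlated at 0.98 to 0.985 (Pearson's r over the tested probe sets), and arrays of different strains at 0.96 to 0.974. Strains were compared with limma on log2(intensity + 16), with p-values adjusted by Benjamini-Hochberg over all tested probe sets and a call at an adjusted p under 0.05. Fold changes are on that scale and understate the change of dim genes. Where the labels do not tie an array to 1 animal, the p-values measure only the spread between these arrays. AKR/N replicate 1 stood apart in some markers of 2 neighbouring tissues. The summed intensity of 5 epididymal probe sets was 249 on it and 46.5 to 132 on the 5 other arrays. That sum came mostly from Lcn5 and Defb42, while Lcn8 was lowest on this array (3.36). The sum of 4 fat cell markers was 548 against 165 to 264. It rose mostly through Car3 and Fabp4, while Adipoq read 174 against 131 to 163. In whole organ RNA, fewer macrophages and less RNA per macrophage cannot be told apart. Whether the probes match the sequences of all strains equally was not tested.

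Of the 32 macrophage genes, 25 passed the filter and 7 did not. Those not tested were Ptprc (CD45, a phosphatase on all leukocytes), Cd163 (the haemoglobin scavenger receptor), Lyve1 (a hyaluronan receptor), Itgb2 (the beta chain of leukocyte integrins), Cd86 (a T cell costimulator), Ccl2 (a monocyte attractant) and Retnla (a secreted protein of alternatively activated macrophages). Each was above the 40th percentile on at most 1 array. The label of the set was thus borne by part of its defining genes: Csf1r, Adgre1, Mrc1, Lyz2 and C1qa were above that percentile on all 6 arrays and Cd68 on 5, while Ptprc and Cd163 were near the floor of the arrays.

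The genes called among the 25 tested were Lgmn, Cd14, Msr1 and Aif1, and a gene not called is not shown to be equal between strains. In MRL/MpJ against C57BL/6, Lgmn was higher and Cd14 was lower. In AKR/N against C57BL/6, Lgmn and Msr1 were higher. In MRL/MpJ against AKR/N, Aif1 was lower. The calls numbered 2 of 25 in the first comparison (10.0% of all tested probe sets were called, 5.07% higher and 4.95% lower), 2 of 25 in the second (9.97% of all, 5.09% higher and 4.88% lower) and 1 of 25 in the third (6.91% of all, 3.22% higher and 3.69% lower). These shares are near those of the whole array, so the counts are no result about the macrophage genes as a set.

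The 3 comparisons share arrays, so the 2 against C57BL/6 are not independent of each other. The median difference of the 25 genes was -0.08 on the log2 scale in MRL/MpJ against C57BL/6, beside 0.01 for all tested probe sets. It was -0.08 in AKR/N against C57BL/6, beside -0.003. It was -0.12 in MRL/MpJ against AKR/N, beside 0.02. In each comparison 9 of the 25 genes had a positive sign. At an unadjusted p under 0.05 there were 7, 7 and 3 genes in the same order, beside 24.3%, 23.8% and 20.3% of all tested probe sets. By strain mean, C57BL/6 was the highest strain for 13 of the 25 genes, AKR/N for 8 and MRL/MpJ for 4, and MRL/MpJ was the lowest for 11. For these signs and orders the share over all tested probe sets was not computed, so no trend of the set is read from them.

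**Figure D1:**
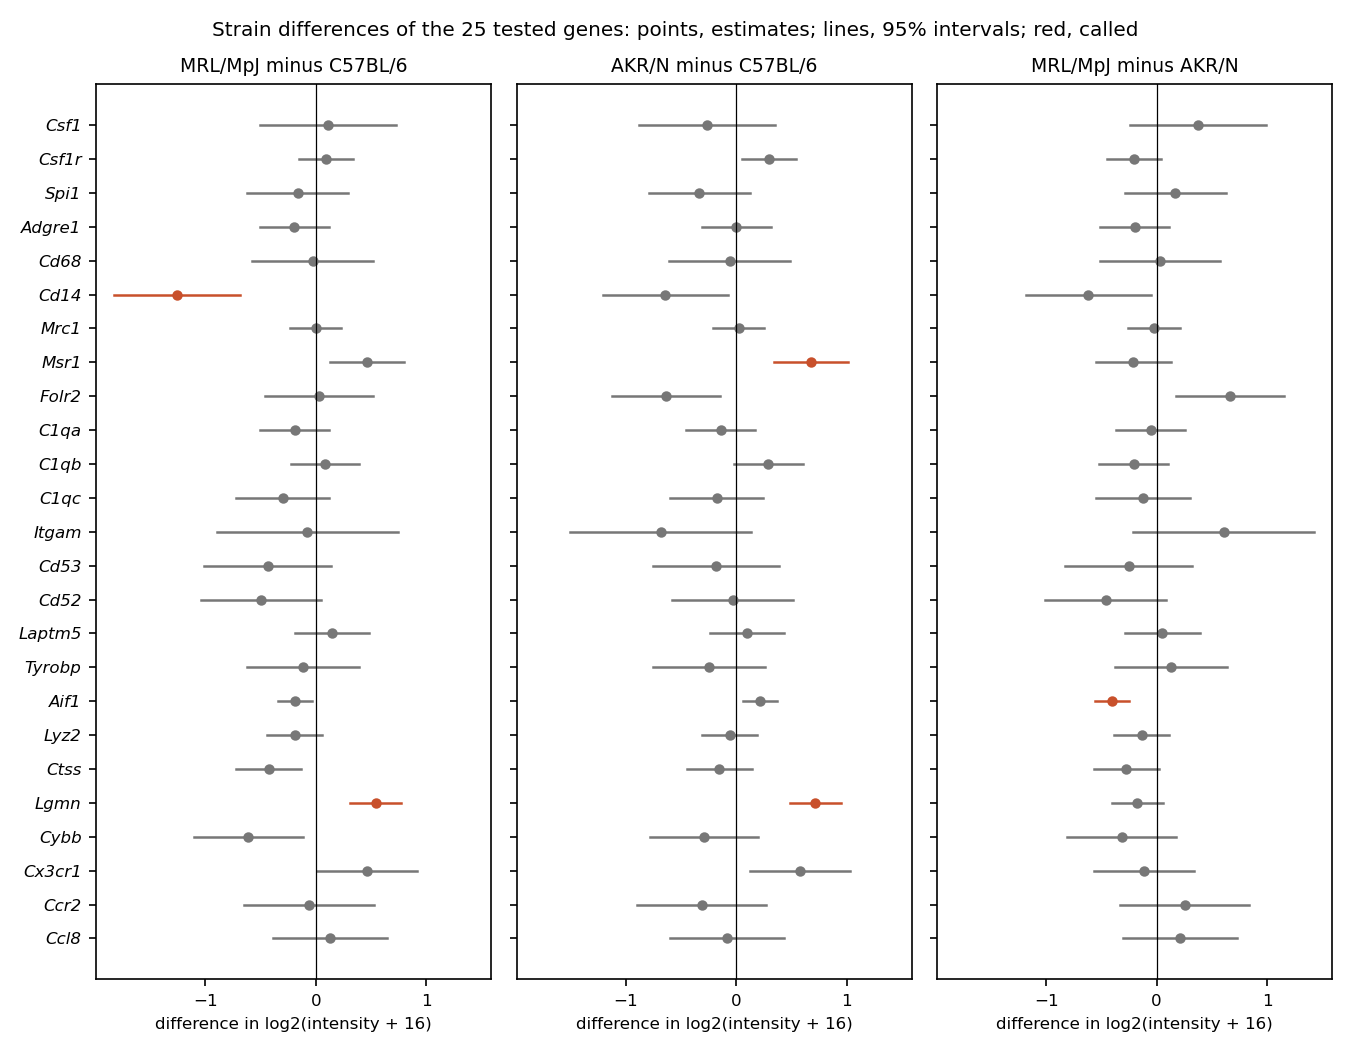
Difference between strains in log2(intensity + 16) for the 25 tested macrophage genes, in 3 panels for the 3 comparisons, with points for the estimates, lines for 95% intervals from limma and red for calls at an adjusted p under 0.05. Lgmn is called in both panels against C57BL/6, Cd14 and Msr1 in one each, and Aif1 between MRL/MpJ and AKR/N, while most other intervals span 0.

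Lgmn encodes legumain, a lysosomal cysteine protease that cuts after asparagine and processes cathepsins, and it is also made by cells other than macrophages. Its intensity was 227 and 202 on the C57BL/6 arrays, 362 and 363 on the AKR/N arrays, and 296 and 345 on the MRL/MpJ arrays. Both C57BL/6 arrays lay below all 4 others, and the AKR/N arrays lay above the MRL/MpJ arrays. Lgmn was 1.64-fold higher in AKR/N than in C57BL/6 (log2 difference 0.72, SE 0.104, adjusted p = 0.00158). It was 1.46-fold higher in MRL/MpJ than in C57BL/6 (log2 difference 0.54, SE 0.104, adjusted p = 0.00799). MRL/MpJ and AKR/N differed by -0.17 (95% interval -0.40 to 0.06, adjusted p = 0.406). The AKR/N call was kept under all 16 alternative settings. The MRL/MpJ call was lost without C57BL/6 replicate 2 (0.46, adjusted p = 0.0552), without MRL/MpJ replicate 2 (0.44, adjusted p = 0.0808) and without the variance trend (adjusted p = 0.0802). One probe set represented the gene, so there was no second reading.

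Msr1 encodes the class A scavenger receptor, which takes up modified lipoproteins and microbial particles. Its brightest probe set read 94.6 and 65.8 in C57BL/6, 134 and 138 in AKR/N, and 114 and 117 in MRL/MpJ. C57BL/6 was lowest, with no overlap of its arrays with either other strain, and its 2 arrays lay further apart than those of the other strains. The gene was 1.60-fold higher in AKR/N than in C57BL/6 (log2 difference 0.67, SE 0.152, adjusted p = 0.0181). In MRL/MpJ against C57BL/6 the difference was 0.46 (SE 0.152, adjusted p = 0.0840) and was not called. Both other tested probe sets of Msr1 were called in both comparisons: 0.93 (adjusted p = 0.00497) and 0.82 (adjusted p = 0.00816) in AKR/N, and 0.63 (adjusted p = 0.0364) and 0.65 (adjusted p = 0.0261) in MRL/MpJ. Another probe set did not pass the filter. The mean of the 3 tested probe sets was called in both, at 0.81 (adjusted p = 0.00556) and 0.58 (adjusted p = 0.0297).

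The AKR/N call of the brightest Msr1 probe set rested on all of the arrays compared except C57BL/6 replicate 1. It was lost without C57BL/6 replicate 2 (0.46, adjusted p = 0.103), without AKR/N replicate 1 (0.69, adjusted p = 0.0889), without AKR/N replicate 2 (0.65, adjusted p = 0.114) and without the variance trend (adjusted p = 0.0892). Of the other 2 probe sets, the first lost its AKR/N call without AKR/N replicate 2 (0.78, adjusted p = 0.0685). The second lost it without C57BL/6 replicate 2 (0.61, adjusted p = 0.0543), without AKR/N replicate 1 (0.73, adjusted p = 0.0794) and without the variance trend (adjusted p = 0.0644). In MRL/MpJ against C57BL/6, the calls of both were lost without C57BL/6 replicate 2 (0.57, adjusted p = 0.135, and 0.44, adjusted p = 0.135) and without either MRL/MpJ array (differences 0.53 to 0.72, adjusted p 0.0844 to 0.200). The first was also lost there without C57BL/6 replicate 1 (0.68, adjusted p = 0.0715) and with only the strains compared (adjusted p = 0.0556). Both were lost there without a filter (adjusted p 0.0817 and 0.0595) and without the variance trend (adjusted p 0.0849 and 0.107).

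Cd14 encodes the co-receptor that hands bacterial lipopolysaccharide to Toll-like receptor 4. Its intensity was 53.7 and 63.1 in C57BL/6, 24.9 and 39.4 in AKR/N, and 22.5 and 9.03 in MRL/MpJ. The arrays of the 3 strains did not overlap, with C57BL/6 highest and MRL/MpJ lowest, and MRL/MpJ replicate 2 was below the 40th percentile of its array. Cd14 was 2.39-fold lower in MRL/MpJ than in C57BL/6 (log2 difference -1.26, SE 0.257, adjusted p = 0.0110). The difference was -0.64 in AKR/N against C57BL/6 (adjusted p = 0.156) and -0.62 in MRL/MpJ against AKR/N (adjusted p = 0.203), neither called. The size in MRL/MpJ hung on the constant added before the logarithm: it was -1.95 with a constant of 1 and -0.62 with one of 64, both called. The call was lost without C57BL/6 replicate 2 (-1.17, adjusted p = 0.0783), without MRL/MpJ replicate 2 (-0.95, adjusted p = 0.0762) and without the variance trend (adjusted p = 0.0605).

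Aif1 encodes a calcium-binding, actin-bundling protein widely used as a macrophage and microglia marker under the name Iba1. Its intensity was 1839 and 1853 in C57BL/6, 2180 and 2116 in AKR/N, and 1714 and 1526 in MRL/MpJ. It was by far the brightest gene of the set, with a mean of 1871 over the arrays. Lgmn, the next brightest, had a mean of 299, and Adgre1 one of 78.9. How much of the Aif1 signal came from macrophages was not tested. The 3 strains did not overlap, with AKR/N highest and MRL/MpJ lowest. Aif1 was 1.32-fold lower in MRL/MpJ than in AKR/N (log2 difference -0.41, SE 0.0702, adjusted p = 0.00663). It differed from C57BL/6 by 0.22 in AKR/N (adjusted p = 0.0826) and by -0.19 in MRL/MpJ (adjusted p = 0.123), neither called. The call was lost without AKR/N replicate 1 (-0.38, adjusted p = 0.0656), without AKR/N replicate 2 (-0.43, adjusted p = 0.0513), without MRL/MpJ replicate 2 (-0.32, adjusted p = 0.0602) and without the variance trend (adjusted p = 0.162). Its only probe set carries the suffix by which Affymetrix marks probes shared by more than 1 transcript.

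**Figure D2:**
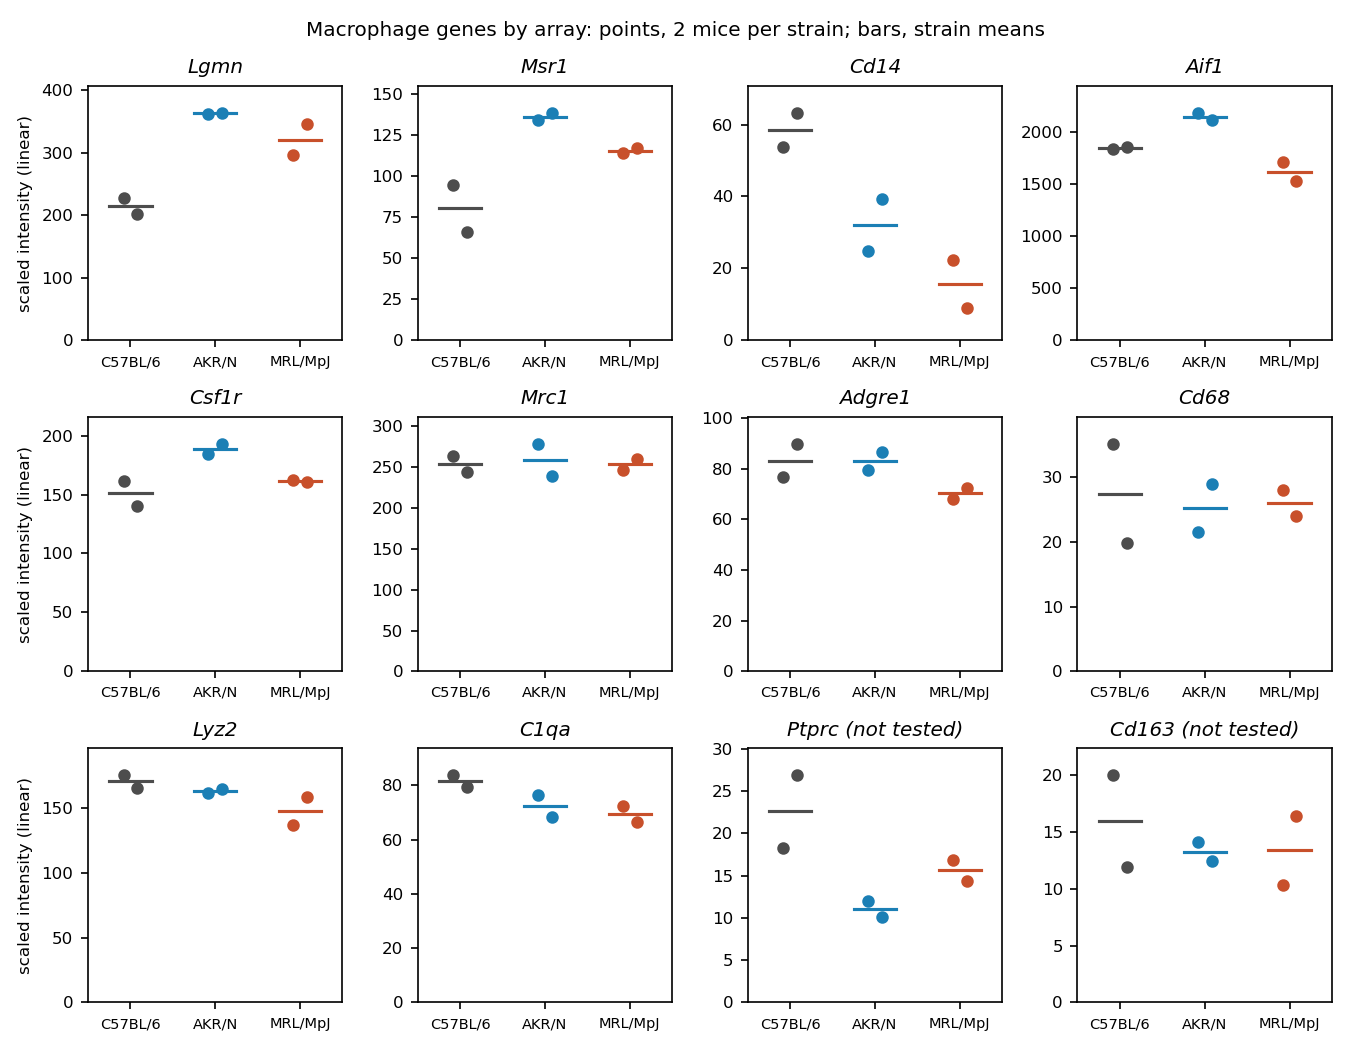
Scaled intensity on a linear axis from 0 for 12 macrophage genes, with 1 point per array, 2 arrays per strain and bars at the strain means. Lgmn and Msr1 sit lowest in C57BL/6, Cd14 falls from C57BL/6 to MRL/MpJ, and Mrc1 lies between 239 and 278 on all 6 arrays.

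The growth factor receptor and the lineage factor showed no called difference on their brightest probe sets. Csf1r, the receptor that macrophages need to survive, read 161 and 141 in C57BL/6, 185 and 193 in AKR/N, and 163 and 161 in MRL/MpJ. AKR/N was highest and C57BL/6 and MRL/MpJ overlapped. The differences were 0.30 in AKR/N against C57BL/6 (SE 0.110, adjusted p = 0.127), 0.09 in MRL/MpJ against C57BL/6 (adjusted p = 0.668) and -0.20 in MRL/MpJ against AKR/N (adjusted p = 0.345). A second Csf1r probe set was called lower in MRL/MpJ than in AKR/N (-0.83, adjusted p = 0.0157), while the third was at 0.06 (adjusted p = 0.887), so the probe sets disagreed. That single call was lost without AKR/N replicate 2 (-0.69, adjusted p = 0.157), without MRL/MpJ replicate 1 (-0.89, adjusted p = 0.0607), without MRL/MpJ replicate 2 (-0.77, adjusted p = 0.0994) and without the variance trend (adjusted p = 0.101). Spi1 lay between 23.3 and 37.0 on the 6 arrays, with differences of -0.33 to 0.17. Csf1, the ligand, lay between 21.1 and 62.2, and its 4 tested probe sets ranged from -0.26 to 0.85 in AKR/N against C57BL/6 with no call.

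Among the surface and uptake receptors, Mrc1 varied little. Mrc1, the mannose receptor, read 264 and 244 in C57BL/6, 278 and 239 in AKR/N, and 246 and 260 in MRL/MpJ, and all 3 strains overlapped. Its differences were -0.002 in MRL/MpJ against C57BL/6 (95% interval -0.23 to 0.23), 0.02 in AKR/N against C57BL/6 (-0.21 to 0.25) and -0.02 between MRL/MpJ and AKR/N (-0.26 to 0.21). Adgre1, which encodes the F4/80 antigen of mouse macrophages, read 76.7 and 89.7 in C57BL/6, 79.7 and 86.7 in AKR/N, and 68.2 and 72.6 in MRL/MpJ. Both MRL/MpJ arrays lay below the others, at -0.20 against C57BL/6 (95% interval -0.51 to 0.12, adjusted p = 0.444) and -0.20 against AKR/N (-0.51 to 0.11, adjusted p = 0.499). Cd68, a glycoprotein of late endosomes, read 35.0 and 19.8 in C57BL/6, 21.5 and 28.9 in AKR/N, and 28.0 and 24.0 in MRL/MpJ, with all strains overlapping. The 95% interval of each of its differences reached 0.487 or more to either side of 0, so a moderate difference was not detectable at this spread. Folr2, the folate receptor beta of resident macrophages, averaged 41.9 in C57BL/6 and 42.3 in MRL/MpJ, with 20.8 in AKR/N. The AKR/N arrays lay below the others, and neither difference passed the test (-0.64, adjusted p = 0.103, against C57BL/6).

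Cd163 was not tested, at 20.0 and 12.0 in C57BL/6, 14.1 and 12.4 in AKR/N, and 10.4 and 16.4 in MRL/MpJ. The 3 strains overlapped and no order can be read at that brightness. Both probe sets of Lyve1 were dimmer still, with strain means of 4.90 to 8.39 for the brighter.

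The 3 C1q chains form the recognition unit of the classical complement pathway, and their genes are direct neighbours on chromosome 4. C1qa read 83.7 and 79.3 in C57BL/6, 76.6 and 68.3 in AKR/N, and 72.3 and 66.3 in MRL/MpJ. C57BL/6 was highest and the other strains overlapped, with differences from C57BL/6 of -0.14 (adjusted p = 0.605) and -0.19 (adjusted p = 0.453). C1qc differed from C57BL/6 by -0.18 in AKR/N and by -0.30 in MRL/MpJ. On its brightest probe set C1qb differed from C57BL/6 by 0.29 for AKR/N and 0.08 for MRL/MpJ. Its other 2 probe sets were at 0.30 and 0.43 for AKR/N but at -0.30 and -0.25 for MRL/MpJ, and none of these values was called. Between MRL/MpJ and AKR/N, all 3 C1qb probe sets were negative: the brightest at -0.21 (adjusted p = 0.466), the second at -0.60 (adjusted p = 0.0166) and the dimmest at -0.67 (adjusted p = 0.0571). The mean of the 3 was called lower (-0.50, adjusted p = 0.0349). The single call of the second probe set was lost without any 1 of the 4 arrays compared (-0.66 to -0.55, adjusted p 0.0637 to 0.127) and without the variance trend (adjusted p = 0.103).

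Apart from Aif1, no leukocyte surface or signalling gene of the set was called. Ptprc read 18.3 and 26.9 in C57BL/6, 12.0 and 10.1 in AKR/N, and 16.9 and 14.4 in MRL/MpJ. Only C57BL/6 replicate 2 was above the 40th percentile of its array, so it was not tested. Of the 6 tested genes of this role, the differences from C57BL/6 ran from -0.49 (Cd52) to 0.15 (Laptm5) in MRL/MpJ and from -0.69 (Itgam) to 0.22 (Aif1) in AKR/N. Cd52 and Cd53, small surface proteins of leukocytes, averaged 31.4 and 25.5 in C57BL/6 and 17.9 and 14.7 in MRL/MpJ. Laptm5, a lysosomal membrane protein of blood cells, lay between 52.8 and 67.8 on the 6 arrays. Tyrobp, the adaptor DAP12, lay between 30.7 and 58.2, with all 3 strains overlapping. Itgam, the alpha chain of the Mac-1 integrin, was above the 40th percentile on 2 arrays only.

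In the enzyme group, the direction of Lgmn was not shared by the other 3 genes. Lyz2, the lysozyme of macrophages, read 175 and 166 in C57BL/6, 162 and 164 in AKR/N, and 137 and 158 in MRL/MpJ. The MRL/MpJ arrays were lowest, at -0.19 against C57BL/6 (95% interval -0.44 to 0.06, adjusted p = 0.336). Ctss, cathepsin S, which trims antigens in phagocytes, read 136 and 111 in C57BL/6, 106 and 113 in AKR/N, and 86.4 and 88.4 in MRL/MpJ. Both MRL/MpJ arrays lay below the others, at -0.43 against C57BL/6 (SE 0.133, adjusted p = 0.0706), which was not called. Cybb, the catalytic chain of the phagocyte oxidase, averaged 33.7, 24.5 and 16.5 in C57BL/6, AKR/N and MRL/MpJ, at -0.61 for MRL/MpJ against C57BL/6 (adjusted p = 0.117). Its second tested probe set had the opposite sign (0.55, adjusted p = 0.298). That probe set passed the filter only through the 2 MRL/MpJ arrays (22.0 and 25.2), so its sign is no check on the first.

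Of the chemokines, chemokine receptors and secreted signals, 3 of 5 were tested and none was called on its brightest probe set. Cx3cr1, the fractalkine receptor of the monocyte and macrophage lineage, read 29.4 and 27.9 in C57BL/6, 59.3 and 42.7 in AKR/N, and 38.6 and 53.4 in MRL/MpJ. C57BL/6 lay below both other strains, at 0.58 in AKR/N (SE 0.205, adjusted p = 0.112) and 0.47 in MRL/MpJ (adjusted p = 0.193). The second Cx3cr1 probe set was called in AKR/N (0.82, adjusted p = 0.0474). That call was lost without any 1 of the 6 arrays (0.66 to 0.97, adjusted p 0.0508 to 0.200) and under the settings without a filter, with a constant of 1, without the variance trend, with only the strains compared and with the replicate number as a block (adjusted p = 0.0516). Ccr2, the receptor of Ccl2 on monocytes, lay between 10.3 and 25.3, and Ccl8, a chemokine of resident macrophages, between 27.5 and 51.1. Ccl2 and Retnla were near the floor, at 2.44 to 21.0 and 3.80 to 19.9.

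**Figure D3:**
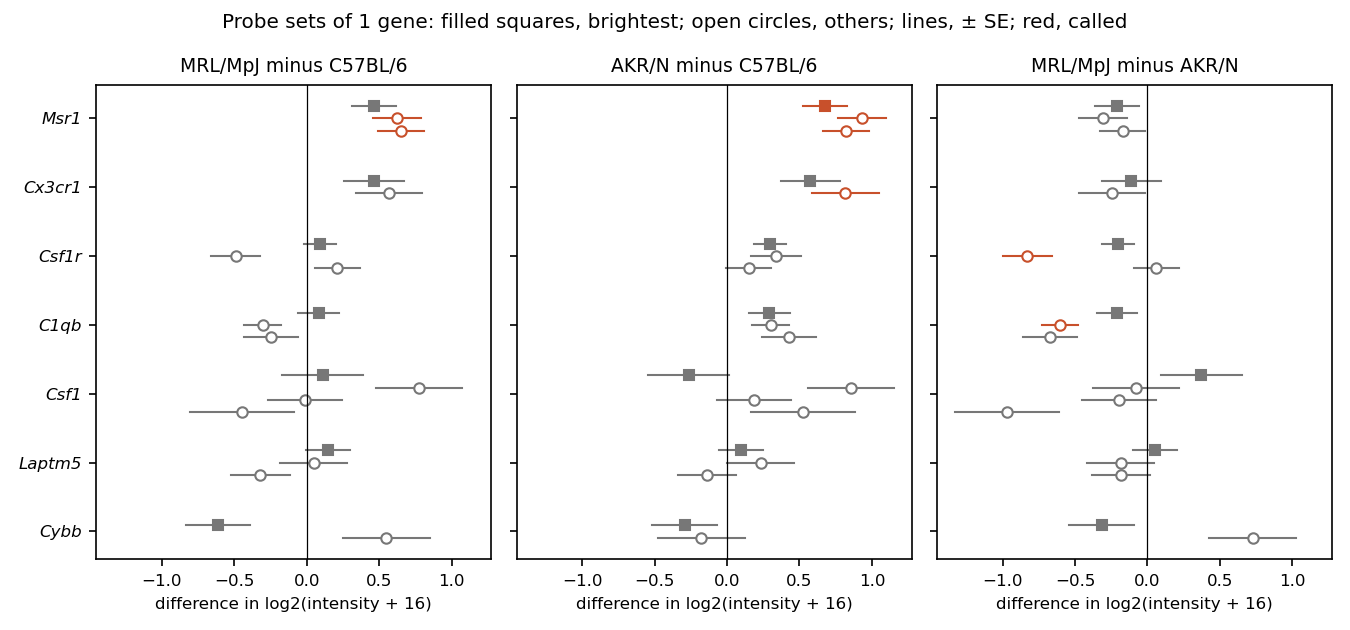
Difference between strains in log2(intensity + 16) for each tested probe set of 7 macrophage genes, in 3 panels for the 3 comparisons, with filled squares for the brightest probe set, open circles for the others, lines for ± SE and red for calls. The Msr1 and Cx3cr1 probe sets lie on 1 side of 0 in both panels against C57BL/6. Those of Csf1r, C1qb, Csf1, Laptm5 and Cybb fall on both sides in at least 1 panel.

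The 2 arrays of a strain differed about as much for the macrophage genes as for the whole array. The median absolute difference between replicates over the 25 genes was 0.178 for C57BL/6, 0.161 for AKR/N and 0.104 for MRL/MpJ, beside 0.169, 0.141 and 0.149 over all tested probe sets. Replicate 1 was the higher array for 14 of 25 C57BL/6 values, 7 AKR/N values and 12 MRL/MpJ values, beside 47.3%, 49.0% and 49.4% of all tested probe sets. The 95% interval of a strain difference reached a median of 0.453 to either side of its estimate. Thus 21, 20 and 21 of the 25 intervals lay wholly within 1 log2 unit of 0 in MRL/MpJ against C57BL/6, AKR/N against C57BL/6 and MRL/MpJ against AKR/N.

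**Figure D4:**
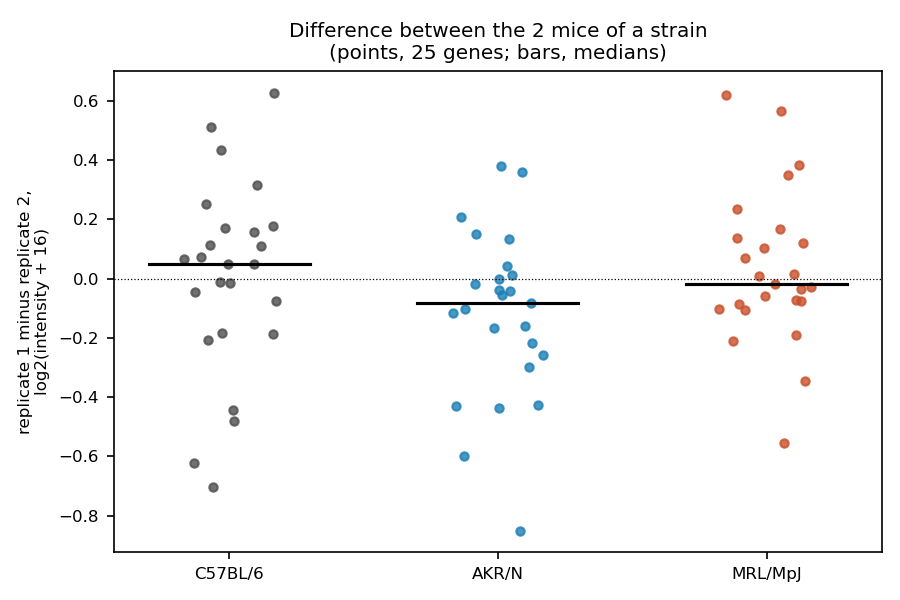
Replicate 1 minus replicate 2 in log2(intensity + 16) for each of the 25 tested macrophage genes, by strain, with points for genes and bars for medians. The medians are 0.05 (C57BL/6), -0.08 (AKR/N) and -0.02 (MRL/MpJ), and the points spread to both sides of 0 in every strain.

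The sequence before the gene start was used for 20 of the 32 macrophage genes, as 23 windows of 250 bases taken from RefSeq on GRCm38.p6. Csf1r and Cd14 were not among them. PU.1 binds purine-rich sites with a GGAA core, and the letters searched were GAGGAA on either strand. They stood in 12 of the 23 windows (52.2%), beside 23.2% of all 32851 windows of that length. Member windows on 1 chromosome were left out, a limit not placed on the count of all windows, so the shares cover unlike sets. A match is a description of letters, not a binding site. The windows below show Lgmn (chr12:102439729-102439978, strand -) and Aif1 (chr17:35176053-35176302, strand -), whose calls are given above, and Mrc1 (chr2:14229164-14229413, strand +), whose largest strain difference was the smallest of the 25. Each is written 5′ to 3′ on the strand of the gene, and capitals mark the letters searched or their reverse complement.
Lgmn: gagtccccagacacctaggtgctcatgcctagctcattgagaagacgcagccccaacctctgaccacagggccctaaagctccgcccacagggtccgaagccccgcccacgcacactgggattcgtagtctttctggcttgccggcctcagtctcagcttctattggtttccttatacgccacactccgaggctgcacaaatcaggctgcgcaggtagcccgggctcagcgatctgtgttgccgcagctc
Aif1: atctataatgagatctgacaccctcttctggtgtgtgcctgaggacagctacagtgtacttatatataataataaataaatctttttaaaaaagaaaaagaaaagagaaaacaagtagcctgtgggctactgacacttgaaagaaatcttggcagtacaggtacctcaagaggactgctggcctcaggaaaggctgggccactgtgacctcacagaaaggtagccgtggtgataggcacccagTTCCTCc
Mrc1: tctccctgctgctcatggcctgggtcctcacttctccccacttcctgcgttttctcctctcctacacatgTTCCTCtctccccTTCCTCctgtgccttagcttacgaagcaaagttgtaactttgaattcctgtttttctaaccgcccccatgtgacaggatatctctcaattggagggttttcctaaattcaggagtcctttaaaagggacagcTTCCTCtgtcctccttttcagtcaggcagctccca
The Mrc1 window held 3 matches, all on the opposite strand. The Aif1 window held 1, close to the gene start and also on the opposite strand. The Lgmn window shown, and that of its second annotated start, held none, which says only that these letters are not in these windows.

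Other genes of macrophage biology were examined as 10 lists, chosen with earlier results of these data known. Of all tested probe sets, 10.0% were called in MRL/MpJ against C57BL/6 and 9.97% in AKR/N against C57BL/6. The share was 6.91% in MRL/MpJ against AKR/N. No result about a list is read from its count of calls. Of 17 tested lysosomal genes, 5 were higher and 1 was lower in AKR/N against C57BL/6, with a median of 0.14 beside -0.003 for all probe sets. In MRL/MpJ against C57BL/6, 4 were higher and 2 lower, with a median of 0.08 beside 0.01. In MRL/MpJ against AKR/N, none was higher and 2 were lower. Ctsb, cathepsin B, read 352 and 325 in C57BL/6, 569 and 571 in AKR/N, and 584 and 580 in MRL/MpJ. C57BL/6 lay below all other arrays, with differences of 0.73 in AKR/N (adjusted p = 0.000242) and 0.76 in MRL/MpJ (adjusted p = 0.000186). Ctsd, cathepsin D, read 266 and 260 in C57BL/6, 414 and 398 in AKR/N, and 398 and 403 in MRL/MpJ, with differences of 0.60 (adjusted p = 0.00129) and 0.58 (adjusted p = 0.00157). Lgmn had the same order of C57BL/6 below the others. These enzymes are found in lysosomes of most cell types.

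Other lysosomal calls pointed both ways. Ctsc, cathepsin C, which activates serine proteases of leukocytes, was lower in MRL/MpJ than in C57BL/6, at 54.4 and 58.2 against 113 and 111 (-0.83, adjusted p = 0.00496). Ctsz was higher in AKR/N than in C57BL/6 (0.60, adjusted p = 0.0284), which was lost without C57BL/6 replicate 2 (0.43, adjusted p = 0.162), AKR/N replicate 1 (0.51, adjusted p = 0.189) or AKR/N replicate 2 (0.69, adjusted p = 0.0776). Ctsl (-0.30, adjusted p = 0.0117) and Psap (-0.43, adjusted p = 0.0109) were lower in MRL/MpJ than in AKR/N. Ctsl was lost without any 1 of the 4 arrays compared (-0.32 to -0.28, adjusted p 0.0556 to 0.118), and Psap without AKR/N replicate 1 (-0.36, adjusted p = 0.105) or either MRL/MpJ array (-0.44 and -0.42, adjusted p 0.0596 and 0.0751). The other 6 calls of the list were not refitted. All were against C57BL/6: for AKR/N they were Ctsh (0.63), Ctsl (0.23) and Ctsc (-0.52), and for MRL/MpJ Ctsh (0.92), Ctsz (0.65) and Psap (-0.43) (adjusted p 0.00582 to 0.0481).

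Among uptake receptors outside the set, Fcgr3 and Cd36 differed between strains. Of 12 tested, 2 were higher in AKR/N against C57BL/6, 2 were higher and 1 was lower in MRL/MpJ against C57BL/6, and 1 was higher in MRL/MpJ against AKR/N. Fcgr3, the activating low-affinity Fc receptor for IgG, read 152 and 145 in C57BL/6, 247 and 225 in AKR/N, and 650 and 684 in MRL/MpJ. The 3 strains were apart in that order, with differences of 2.05 between MRL/MpJ and C57BL/6 (adjusted p = 4.26e-07) and 1.44 for MRL/MpJ against AKR/N (adjusted p = 8.02e-06). Cd36, a class B scavenger receptor that fat cells and endothelium also make, read 112 and 77.0 in C57BL/6, 255 and 252 in AKR/N, and 259.7 and 259.8 in MRL/MpJ. It was higher by 1.30 in AKR/N (adjusted p = 0.000219) and by 1.34 in MRL/MpJ (adjusted p = 0.000184) than in C57BL/6. Fcgr2b, the inhibitory Fc receptor, was lower in MRL/MpJ than in C57BL/6 (-0.71, adjusted p = 0.0300), which was lost without either C57BL/6 array or without MRL/MpJ replicate 2 (-0.75 to -0.52, adjusted p 0.0932 to 0.187).

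Among the growth factor signals, 1 of 6 tested genes was called: Csf2ra, the alpha chain of the GM-CSF receptor, was higher in both other strains than in C57BL/6. It read 29.5 and 27.6 in C57BL/6, 70.7 and 68.4 in AKR/N, and 84.6 and 82.6 in MRL/MpJ. The differences were 0.94 (adjusted p = 0.00302) and 1.16 (adjusted p = 0.000825). Of 8 tested Toll-like receptor genes, Myd88 and Lbp were called in both comparisons with MRL/MpJ. Myd88, the adaptor of most Toll-like receptors, read 162 and 136 in C57BL/6, 156 and 175 in AKR/N, and 37.7 and 33.0 in MRL/MpJ, lower by -1.68 (adjusted p = 3.17e-05) and -1.82 (adjusted p = 2.61e-05). Lbp, which carries lipopolysaccharide to Cd14, was higher in MRL/MpJ than in C57BL/6 (1.07, adjusted p = 0.00195). It was also higher than in AKR/N (0.84, adjusted p = 0.0116), a call lost without AKR/N replicate 1 (0.58, adjusted p = 0.0792) or MRL/MpJ replicate 2 (0.76, adjusted p = 0.0982). Cd14, Lbp and Myd88 act in 1 pathway of lipopolysaccharide sensing, and in MRL/MpJ against C57BL/6 the first and last were lower and Lbp higher.

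Of 10 tested myeloid transcription factors, 1 was called in each comparison. Irf8 was higher in MRL/MpJ than in C57BL/6 (0.80, adjusted p = 0.00900), lost without MRL/MpJ replicate 2 (0.69, adjusted p = 0.0822). Cebpb was higher in AKR/N than in C57BL/6 (0.86, adjusted p = 0.0229), lost without any 1 of the 4 arrays compared (0.73 to 0.99, adjusted p 0.0660 to 0.181). Klf4, which spermatids and Sertoli cells also make, was lower in MRL/MpJ than in AKR/N (-0.52, adjusted p = 0.0124), lost without either AKR/N array or MRL/MpJ replicate 2 (-0.52 to -0.47, adjusted p 0.0792 to 0.0937).

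Calls in the other lists were as follows. In the phagocyte oxidase list, 1 of 4 tested genes was called: Ncf4 was higher in MRL/MpJ than in C57BL/6 (1.21, adjusted p = 0.0157), at 29.4 and 33.7 against 3.92 and 5.17, which was lost without either MRL/MpJ array (1.28 and 1.14, adjusted p 0.0836 and 0.120). Of 8 tested complement genes, C2 (0.52, adjusted p = 0.020) and C1ra (0.57, adjusted p = 0.0305) were higher in MRL/MpJ than in C57BL/6. C2 was lost without C57BL/6 replicate 2 or either MRL/MpJ array (0.42 to 0.58, adjusted p 0.0649 to 0.138), and C1ra without any 1 of the 6 arrays (0.49 to 0.66, adjusted p 0.0505 to 0.193). Of 7 tested chemokine genes, Cxcr4 was higher in AKR/N than in C57BL/6 (0.97, adjusted p = 0.0121), lost without either AKR/N array (0.88 and 1.07, adjusted p 0.120 and 0.0619). Of 12 tested leukocyte signalling genes, Inpp5d, the phosphatase SHIP1, was lower than in C57BL/6 in MRL/MpJ (-0.75, adjusted p = 0.0104) and AKR/N (-0.54, adjusted p = 0.0462), and Dock2 in AKR/N (-0.77, adjusted p = 0.0380). Inpp5d in MRL/MpJ was lost without C57BL/6 replicate 2 or MRL/MpJ replicate 2 (-0.73 and -0.57, adjusted p 0.0578 and 0.0847), and in AKR/N without any 1 of the 4 arrays compared (-0.56 to -0.53, adjusted p 0.109 to 0.189), with median centring (adjusted p = 0.0676) and with a constant of 1 (adjusted p = 0.0573). Dock2 was lost without any 1 of those 4 arrays or MRL/MpJ replicate 1 (-0.90 to -0.63, adjusted p 0.0513 to 0.196) and with only the strains compared (adjusted p = 0.0541). Without the variance trend, the calls of Ctsz, Ctsl, Psap, Fcgr2b, Irf8, Cebpb, Klf4, C1ra, C2, Inpp5d and Dock2 and that of Lbp against AKR/N were also lost (adjusted p 0.0520 to 0.220). Without a filter, those of Ctsz, Fcgr2b, Cebpb, C1ra and Dock2 and that of Inpp5d in AKR/N were lost (adjusted p 0.0613 to 0.0956). None of the 4 tested genes of macrophage cytokines and activation was called by limma (1 had an unadjusted p under 0.05, in AKR/N against C57BL/6).

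Markers of other cells were also called in these comparisons, and their part in the macrophage values was not tested. Their lists were chosen in the same way. The counts stand beside the shares of all tested probe sets given above, and no result about a cell type is read from them. Of 4 tested Leydig cell genes, 3 were higher in AKR/N and 3 in MRL/MpJ than in C57BL/6. Their summed intensity was 3140 to 3239 in C57BL/6, against 4922 to 5419 for AKR/N and 5004 to 5210 for MRL/MpJ, the same order of C57BL/6 below the others as for Lgmn and Msr1. Cyp17a1, an enzyme of androgen synthesis and the brightest of the 4, was higher by 0.84 in AKR/N (adjusted p = 3.31e-05) and 0.83 in MRL/MpJ (adjusted p = 3.51e-05). That order did not hold for each gene. Hsd3b1 was at -0.04 in AKR/N (adjusted p = 0.865) and Cyp11a1 at -0.07 in MRL/MpJ (adjusted p = 0.720). Cyp11a1 was called higher in AKR/N (0.65), but its other tested probe set had the opposite sign. The comparison of the Aif1 call, MRL/MpJ against AKR/N, had Hsd3b1 higher (0.84, adjusted p = 0.000927) and Cyp11a1 lower (-0.72, adjusted p = 0.00106), both enzymes of steroid synthesis and both lost without the variance trend (adjusted p 0.0679 and 0.0746). The summed intensity of 4 fat cell markers was 165 to 180 in C57BL/6, 242 to 257 in MRL/MpJ, and 548 and 264 on the AKR/N arrays. Of these markers, Adipoq was called in no comparison (-0.02 to 0.18, adjusted p 0.431 to 0.960) and Lep was not tested. Fabp4 and Car3 were called higher in AKR/N than in C57BL/6 (2.29, adjusted p = 0.00498, and 1.97, adjusted p = 0.00485), Fabp4 losing its call without C57BL/6 replicate 2 (1.97, adjusted p = 0.0568) and both without the variance trend (adjusted p 0.0754 and 0.0724). Fabp4 was also called higher in MRL/MpJ (1.43, adjusted p = 0.0496), which was lost without any 1 of the 4 arrays compared (1.10 to 1.75, adjusted p 0.0700 to 0.243), without a filter, with a constant of 64 and without the variance trend (adjusted p 0.125 to 0.189). Without AKR/N replicate 1, the array with the highest fat cell sum, the AKR/N difference was 0.72 for Lgmn (adjusted p = 0.0177) and 0.69 for Msr1 (adjusted p = 0.0889), and the fat cell sum of the AKR/N array that remained, 264, was still above those of C57BL/6.

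Markers of other leukocytes were mostly near the floor. Of 7 T cell genes on the array 3 were tested, and Cd3d was called higher in AKR/N, at 113 and 173 against 1.17 to 2.31 on the 4 other arrays. Cd3d passed the filter only through the AKR/N arrays, so its entry into the test depended on the group where it was high. The remaining tested T cell genes were lower in AKR/N than in C57BL/6, at -0.44 and -0.59, and were not called. The sum of 7 neutrophil probe sets was 133 to 139 in C57BL/6, against 80.9 to 88.6 for AKR/N and 91.7 to 92.3 for MRL/MpJ. Of these genes 3 were tested, and Mpo, myeloperoxidase, was lower in MRL/MpJ than in C57BL/6 (-0.84, adjusted p = 0.0490). That call was lost without any 1 array other than C57BL/6 replicate 2 (-1.06 to -0.57, adjusted p 0.0587 to 0.256) and under 7 other settings (adjusted p 0.0503 to 0.126). Of the B cell, mast cell, and dendritic or natural killer cell genes, 2 of 5, 2 of 6 and 3 of 5 were tested, with no call in any comparison by limma. At an unadjusted p under 0.05 there were 2 of the last group in AKR/N against C57BL/6 and 1 in MRL/MpJ against AKR/N, and 0 of the others. Germ cell genes were bright on all arrays, with a sum of 27869 to 32942, and 1 of 8 was called in MRL/MpJ and 1 in AKR/N against C57BL/6. These were Sycp1, lower in AKR/N (-1.10, adjusted p = 0.000716), and Acrv1, lower in MRL/MpJ (-0.32, adjusted p = 0.0319). This Acrv1 call was lost without any 1 array other than C57BL/6 replicate 2 (-0.33 to -0.19). It was also lost with median centring (-0.27, adjusted p = 0.092). The same held without a filter, without the variance trend and with only the strains compared (adjusted p 0.0572 to 0.215). Between MRL/MpJ and AKR/N, 3 of the 8 were called. Sycp1, of the meiotic chromosome axis, was higher (0.73, adjusted p = 0.0122), lost without either MRL/MpJ array (0.69 and 0.77, adjusted p 0.0796 and 0.0584). Sycp3, of the same axis, was higher (0.38, adjusted p = 0.0461), lost without either C57BL/6 array, AKR/N replicate 2 or MRL/MpJ replicate 1 (0.25 to 0.38, adjusted p 0.0636 to 0.328) and under 5 other settings. Acrv1, a protein of the acrosome, was lower (-0.40, adjusted p = 0.0147), lost without any 1 of the 4 arrays compared (-0.41 to -0.39, adjusted p 0.0683 to 0.103). Without the variance trend all 3 were lost (adjusted p 0.163 to 0.270).

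Of 6 tested Sertoli cell genes, none was called in MRL/MpJ and 2 were higher in AKR/N than in C57BL/6. These were Wt1 (0.43, adjusted p = 0.0397), lost without any 1 of the 6 arrays (0.32 to 0.55, adjusted p 0.0606 to 0.268), and Rhox5 (0.38, adjusted p = 0.0430), lost without any 1 array other than C57BL/6 replicate 1 (0.28 to 0.43, adjusted p 0.0638 to 0.243). Both were lost without a filter, without the variance trend and with only the strains compared (adjusted p 0.0594 to 0.152). Rhox5 was lower in MRL/MpJ than in AKR/N (-0.60, adjusted p = 0.00607), lost without AKR/N replicate 2 (-0.54, adjusted p = 0.0733) and without the variance trend (adjusted p = 0.0956). No peritubular or endothelial gene of 5 tested each was called by limma. An unadjusted p under 0.05 was reached by 2, 1 and 1 peritubular genes in the 3 comparisons in the order used above, and by 0 endothelial genes. Of 2 tested erythroid genes, Hbb-b2, a beta globin, was higher than in C57BL/6 in MRL/MpJ (1.52, adjusted p = 0.00292) and AKR/N (0.87, adjusted p = 0.0476). Its AKR/N call was lost without any 1 of the 6 arrays (0.73 to 1.02, adjusted p 0.0828 to 0.270), without a filter, with a constant of 64 and with only the strains compared. Of 2 tested epididymal genes, Rnase10 was lower than in C57BL/6 in AKR/N (-1.87, adjusted p = 0.00075) and MRL/MpJ (-1.58, adjusted p = 0.00222). Rnase10 passed the filter only through the C57BL/6 arrays (68.8 and 78.0), the group where it was high. The high epididymal sum of AKR/N replicate 1 came from Lcn5, not tested, at 118 against 1.61 to 14.9 on the other arrays, and Defb42, at 111 against 10.2 to 22.7. No value of any marker list was listed at 0.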

How the data were processed

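Total RNA of whole testis was extracted with Trizol, amplified with a one-cycle cDNA kit and labelled with biotin, per the labels. The authors deposited 1 linear intensity per probe set and array, scaled to a common trimmed mean after leaving out 2% of the probe sets at each end. The software behind these values was not given in the sources used here, detection calls were not used, and the number of arrays, 2 per strain, limits the precision. From the deposited intensities, log2(intensity + 16) was computed, 64 control probe sets were left out, and limma 3.58.1 (lmFit, contrasts.fit, eBayes with trend = TRUE) was run in R 4.3.3 on all 6 arrays, with 3 residual and 7.58 prior degrees of freedom. Of 45101 probe sets, 34945 had 1 symbol in the platform annotation, 932 several and 9160 none. The procedure was tested on simulated data. The macrophage genes and the lists were chosen with earlier results of these data known. Named in full were called genes and 8 defining genes (Csf1r, Adgre1, Cd68, Cd163, Mrc1, Lyz2, C1qa, Ptprc), other members with at least a range or a strain mean, and up to 3 called genes of each of 10 pathway and 13 cell type lists per comparison, some Leydig cell genes as counts only. Alternatives covered the scaling, filter, constant, variance trend, arrays fitted, probe sets and single arrays.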

Additional observations from a re-analysis of the deposited data

How the results depend on the processing

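Of 80 refits of the 5 called results on macrophage genes, 66 kept the call, 14 lost it and 0 reversed; for the 63 other named calls, 804 of 997 refits kept it, 193 lost it and 0 reversed. These refits include settings that leave a difference unchanged, such as leaving out an array of the strain not compared. All 14 losses of macrophage calls came without an array of the strains compared or without the variance trend. Without the trend the number of macrophage genes called was 0 in MRL/MpJ against C57BL/6. It was 1 in AKR/N against C57BL/6 and 0 in MRL/MpJ against AKR/N (6, 8 and 3 in that order by limma's unadjusted p under 0.05). The cause was not tested. With the mean of a gene's probe sets the number called was 2 in MRL/MpJ against AKR/N, where C1qb joined Aif1. Leaving out 1 array gave 0 to 3, 1 to 2 and 0 to 1 genes in the same order, with the values beside each gene in the report. Fewer arrays were fitted in those settings, and the lone array of a strain was taken to vary like the others. Median centring changed the share of all calls that were lower from 49.4% to 39.4% in MRL/MpJ and from 49.0% to 39.7% in AKR/N against C57BL/6. Differences between replicates 1 and 2 correlated at only 0.04 to 0.05 between strains. Whether arrays of the same replicate number shared a day or batch was not tested. Over all tested probe sets, the replicate block raised the calls from 2975 to 3510 in MRL/MpJ against C57BL/6. The calls rose from 2960 to 3492 in AKR/N against C57BL/6 and from 2052 to 2549 in MRL/MpJ against AKR/N. With the replicate block, 2, 3 and 1 genes were called, the added one being Aif1 in AKR/N against C57BL/6 (adjusted p = 0.0434); the calls of the second Cx3cr1 probe set (adjusted p = 0.0516) and Mpo (adjusted p = 0.0503) were lost. Dim genes such as Itgam, Cd53 and Ccr2 lie near the filter, where the precision is lowest.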
